A study of Homo sapiens with 6 samples.

Results

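The EGFR family described here comprises 10 genes chosen by name from the 58735 genes of the deposited count table. They are 3 receptors (EGFR, ERBB2, ERBB3), 5 ligands (EREG, AREG, BTC, HBEGF, TGFA), the receptor inhibitor ERRFI1 and the ligand-releasing protease ADAM17. The measurements are RNA-seq gene counts from Huh7 cells, an established human liver cancer line. The 2 groups were Huh7 cells with a short hairpin RNA against ITGB5, the integrin beta 5 subunit (shITGB5, 3 libraries), and Huh7 cells with a control hairpin (shcontrol, 3 libraries). All were grown in RPMI-1640 medium with fetal bovine serum, and the series, which concerns ITGB5, the EGFR adaptor EPS15 and response to a kinase inhibitor, asked how the ITGB5 hairpin alters the transcriptome. How many hairpins or clones stand behind each group, and whether its 3 libraries came from separate cultures, is not given in the sources used here. P-values therefore weigh the difference between the groups only against the spread among libraries of a group, and that spread may be technical.

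EGFR family receptors are membrane tyrosine kinases that pair when a ligand binds and then signal through the RAS-ERK and PI3K pathways. ERBB2 has no known ligand and acts as a preferred partner, while ERBB3 binds neuregulins, has a very weak kinase of its own and recruits PI3K. The ligands are made as membrane-bound precursors that proteases such as ADAM17 cut free, and in liver the EGFR system is known for its part in hepatocyte proliferation after injury.

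The ligand genes EREG, AREG and BTC, which all rose with the ITGB5 hairpin (values below), lie near each other on chromosome 4. EREG spans 74365143 to 74388751 on the plus strand of GRCh38, AREG 74445134 to 74455009 on the plus strand, and BTC 74744759 to 74794686 on the minus strand. A gap of 56.4 kb separates EREG from AREG, and one of 290 kb separates AREG from BTC. Their promoter windows are shown because these genes rose together, and that of ERBB2 because it was the receptor with the largest rise. Each window runs 5′ to 3′ on the gene's own strand from 250 bases before the start to 50 after it (RefSeq, GRCh38.p14). Capitals mark matches, on either strand, to the AP-1 letters TGANTCA, the CRE letters TGACGTC, the TEAD letters GGAATG or the ETS letters CGGAAGT.
EREG, chr4:74364895-74365194, plus strand: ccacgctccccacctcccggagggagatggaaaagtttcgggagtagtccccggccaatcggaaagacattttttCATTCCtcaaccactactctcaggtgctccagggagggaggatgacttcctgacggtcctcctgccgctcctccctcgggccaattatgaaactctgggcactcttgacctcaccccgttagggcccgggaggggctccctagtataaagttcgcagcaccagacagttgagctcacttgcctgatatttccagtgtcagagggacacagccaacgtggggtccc
AREG, chr4:74444886-74445185, plus strand: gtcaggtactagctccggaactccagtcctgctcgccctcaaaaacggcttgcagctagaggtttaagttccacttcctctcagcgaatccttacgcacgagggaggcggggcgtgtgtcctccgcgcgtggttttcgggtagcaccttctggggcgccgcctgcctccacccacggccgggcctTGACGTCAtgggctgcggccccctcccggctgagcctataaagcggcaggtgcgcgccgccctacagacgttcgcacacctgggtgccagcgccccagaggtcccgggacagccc
BTC, chr4:74794474-74794773, minus strand: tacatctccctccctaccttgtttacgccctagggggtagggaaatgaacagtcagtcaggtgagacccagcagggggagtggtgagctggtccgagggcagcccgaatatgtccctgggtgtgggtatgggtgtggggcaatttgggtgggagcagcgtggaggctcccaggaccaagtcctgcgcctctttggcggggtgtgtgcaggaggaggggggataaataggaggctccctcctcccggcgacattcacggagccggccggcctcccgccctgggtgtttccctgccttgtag
ERBB2, chr17:39687844-39688143, plus strand: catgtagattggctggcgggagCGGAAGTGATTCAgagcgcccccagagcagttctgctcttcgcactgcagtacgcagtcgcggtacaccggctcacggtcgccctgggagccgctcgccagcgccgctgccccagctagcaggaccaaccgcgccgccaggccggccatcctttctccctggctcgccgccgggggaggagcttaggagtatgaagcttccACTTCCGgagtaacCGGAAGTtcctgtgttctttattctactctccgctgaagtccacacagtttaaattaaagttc

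The window of EREG held 1 TEAD match, beginning 175 bases before the start. The CRE letters matched on both strands of the AREG window, and the 2 overlapping matches form the single capital run that begins 65 bases before the start. Of the 35116 RefSeq promoter windows of this length, 3.45% held the CRE letters, 14% the TEAD letters, 7.71% the AP-1 letters and 6.83% the ETS letters. No match to the 4 motifs was found in the BTC window, so the 3 ligand windows had no motif of this set in common. The ERBB2 window held 3 ETS matches, 1 of which shares a base with an AP-1 match. That window lies inside the span of PGAP3 on the other strand (39671122 to 39696797), so its letters are not particular to ERBB2. Whether ERBB2 was transcribed from this start in these cells was not tested. A match is a description of letters and not evidence that a factor binds. RefSeq windows were found for 9 of the 10 genes, all but ERBB3.

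The hairpin lowered its target only partly. ITGB5 measured 173.1, 181.0 and 174.3 CPM in the shITGB5 libraries, against 204.7, 213.8 and 216.9 CPM in the shcontrol libraries, where CPM stands for counts scaled to a common library total. The groups did not overlap, and ITGB5 fell by 16.8% (95% interval -20.4% to -13.1%, edgeR quasi-likelihood test, Benjamini-Hochberg adjusted p = 2.85e-11). An exact two-sided permutation test of 3 libraries against 3 gave p = 0.1, the smallest it allows. Library totals ran from 15777922 to 18011313 counts. Of 10 hepatocyte and hepatoma markers, all 10 were tested and 7 rose, with summed levels of 6888.5 to 7075.6 CPM in shITGB5 and 6031.2 to 6186.6 CPM in shcontrol. TTR (log2 change 0.68), APOA2 (0.52) and APOA1 (0.36) rose most. Of 7 fibroblast and stellate markers 1 rose (LUM, 0.22), with summed levels of 323.8 to 333.4 CPM in shITGB5 and 289.5 to 303.4 CPM in shcontrol. Endothelial markers (5 genes) summed to 4.18 to 5.51 CPM in shITGB5 and 3.55 to 5.63 CPM in shcontrol, nearly all of it PECAM1, with KDR at 0 in all libraries. Blood cell markers (6 genes) summed to 6.57 to 7.04 CPM in shITGB5 and 6.48 to 7.63 CPM in shcontrol, nearly all of it LYZ. Of 13 mitochondrially encoded transcripts 8 fell, led by MT-ND5 (-0.21), MT-ND6 (-0.18) and MT-ATP6 (-0.18), and they summed to 28770.4 to 29132.4 CPM in shITGB5 and 30868.4 to 31645.8 CPM in shcontrol. The part of these shifts in the results below was not tested.

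Of the 10 family genes, 5 rose, 3 fell and HBEGF did not pass the test, and TGFA had too few counts to be tested. Across all 16577 genes tested, 15.5% passed at an adjusted p under 0.05 (edgeR), 8.54% upward and 6.96% downward. For 8 of the 9 family genes tested, and for 28.5% of all genes tested, the values of the groups were apart. The changes among the family were of unequal size: EREG doubled, whereas EGFR moved by a few percent. In bulk RNA, less RNA per cell and fewer cells with the RNA cannot be told apart.

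**Figure D1:**
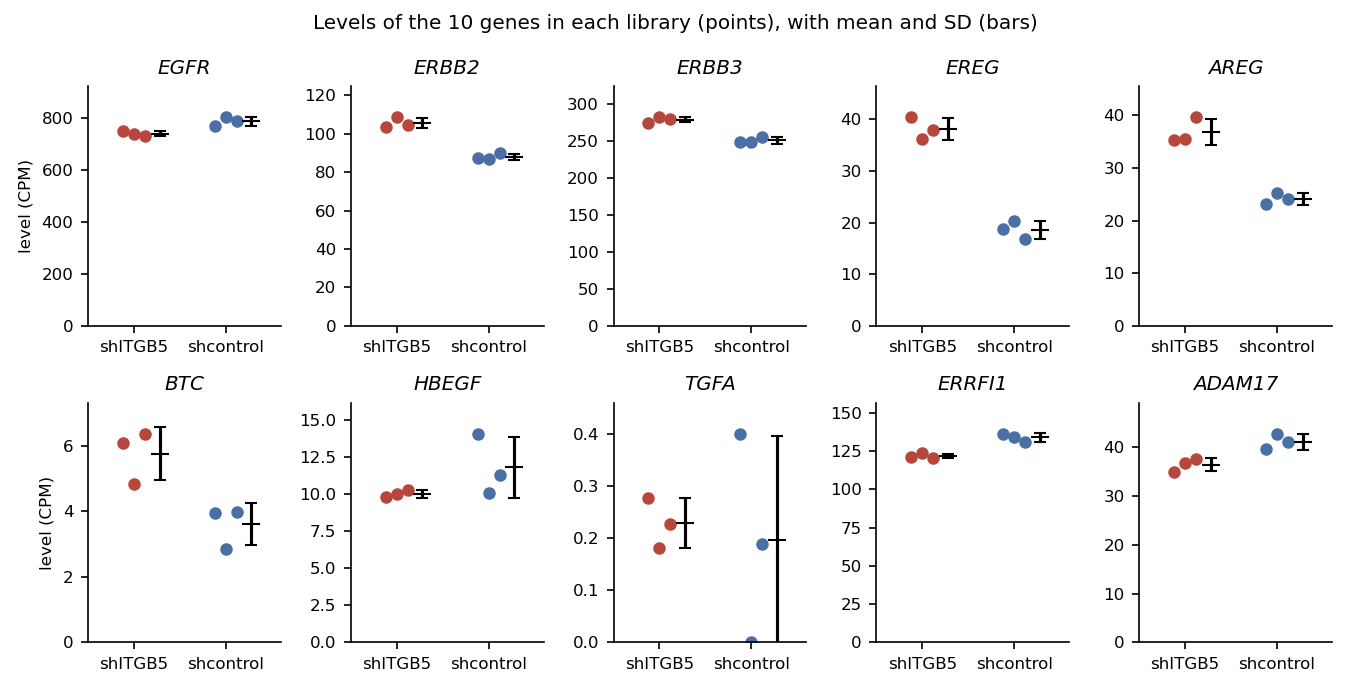
Level of each of the 10 family genes (y axis, CPM, starting at 0 in each panel) in the 3 shITGB5 libraries (red) and the 3 shcontrol libraries (blue). Points are libraries and bars give the mean and SD, cut at 0 for TGFA. The groups are apart for EREG (36.2 to 40.4 CPM in shITGB5, 16.8 to 20.3 CPM in shcontrol) and overlap for HBEGF and TGFA.

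EGFR, the receptor for all 5 ligands, was the most abundant of the 10 transcripts and was slightly lower with the hairpin. EGFR (ENSG00000146648, chromosome 7, 55019021 to 55211628, plus strand) measured 750.0, 741.4 and 730.3 CPM in the shITGB5 libraries, against 770.4, 804.2 and 790.8 CPM in the shcontrol libraries. Every shITGB5 library lay below every shcontrol library, although the closest pair differed by less than the shcontrol libraries differed among themselves. The log2 change was -0.09 (SE 0.0227), a difference of -6.07% (95% interval -8.95% to -3.09%, edgeR adjusted p = 0.00177). With 12253 to 13483 counts per library, counting error alone gives a coefficient of variation under 1%, and the observed one was 1.34% in shITGB5 and 2.16% in shcontrol. In limma on log2(FPKM + 1) the call was lost (adjusted p = 0.079).

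ERBB3, the neuregulin receptor, rose in the same libraries. ERBB3 (ENSG00000065361, chromosome 12, 56076799 to 56103505) measured 275.1, 282.3 and 279.8 CPM in shITGB5, against 248.6, 248.5 and 255.8 CPM in shcontrol. The groups were well apart, with an 11.2% rise (95% interval 6.88% to 15.7%, edgeR adjusted p = 1.6e-05).

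ERBB2, the partner receptor that has no known ligand, showed the largest change among the receptors. ERBB2 (ENSG00000141736, chromosome 17, 39687914 to 39730426) measured 103.6, 108.6 and 104.6 CPM in shITGB5, against 87.3, 87.1 and 89.8 CPM in shcontrol. It was higher in all 3 libraries by a mean of 19.9% (95% interval 13.2% to 26.9%, edgeR adjusted p = 2.38e-07). ERBB2 shares 571 exonic bases with MIEN1 and 194 with PGAP3 on the other strand. Their counts equalled 13.3% and 6.95% of those of ERBB2, and neither passed the test (log2 changes 0.14 and 0.04, edgeR adjusted p = 0.479 and 0.908). The kit was directional, but the strand setting of the counting is not given in the sources used here.

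Because EGFR was lower while ERBB2 and ERBB3 were higher, the summed receptor level hardly moved and its makeup did. On the FPKM scale, which divides by the deposited gene length, the receptors summed to 100.3 ± 0.78 in shITGB5 and 99.3 ± 1.54 in shcontrol (SD, n = 3 each). EGFR held 59.7%, 58.6% and 58.7% of that sum in the shITGB5 libraries, against 63.1%, 64.1% and 63.1% in the shcontrol libraries. The ratio of EGFR to ERBB3, in FPKM, was 1.97, 1.9 and 1.88 in shITGB5, against 2.24, 2.34 and 2.23 in shcontrol. These shares are descriptions and follow from the 3 receptor changes above. FPKM compares different genes only as far as the deposited length matches the transcripts present, which was not tested. ERBB4, the remaining receptor of the family and not one of the 10, lay at 40.4 ± 2.67 CPM in shITGB5 and 38.7 ± 0.838 CPM in shcontrol (SD, n = 3 each), with a fold between 0.958 and 1.14 (95% interval, edgeR adjusted p = 0.607).

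**Figure D2:**
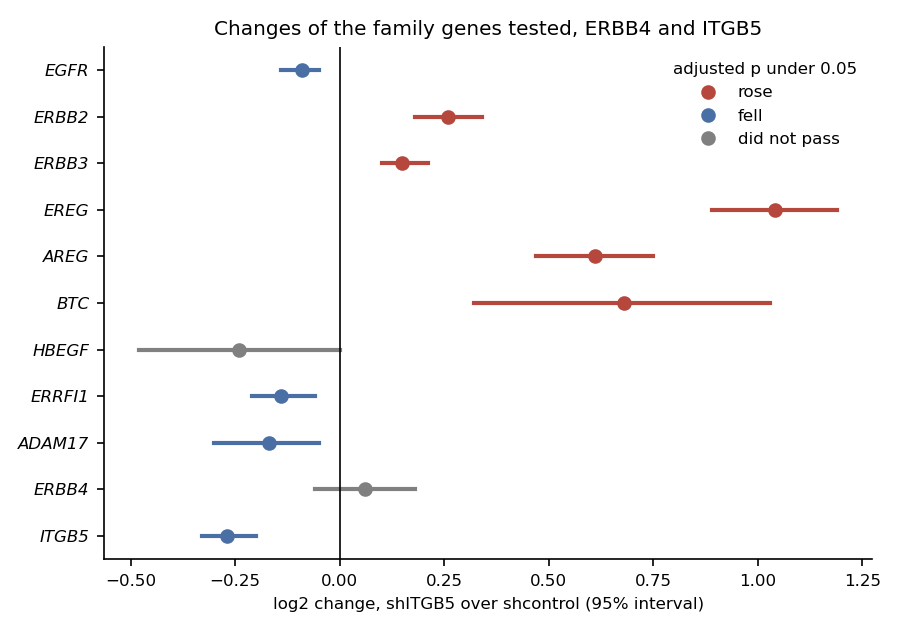
Log2 change, shITGB5 over shcontrol (x axis), for the 9 family genes tested and for ERBB4 and ITGB5 (rows), as point and 95% interval from edgeR. Red genes rose, blue genes fell and grey genes did not pass at an adjusted p under 0.05. EREG stands farthest to the right at 1.04, and the intervals of EGFR, ERRFI1 and ADAM17 lie below 0.

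EREG, the gene of epiregulin, a ligand of EGFR and ERBB4, showed the largest change of the 10 genes. EREG (ENSG00000124882) measured 40.4, 36.2 and 38 CPM in the shITGB5 libraries, against 18.7, 20.3 and 16.8 CPM in the shcontrol libraries. The lowest shITGB5 library was well above the highest shcontrol library. The fold was 2.05 (95% interval 1.85 to 2.27, log2 change 1.04, SE 0.0758, edgeR adjusted p = 5.86e-23). Only 13 of the 1416 genes that rose, EREG included, had a log2 change as large as that of EREG. Leaving out any 1 library gave log2 changes of 0.97 to 1.1.

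AREG, the gene of amphiregulin, a ligand of EGFR, rose as well. AREG (ENSG00000109321) measured 35.2, 35.5 and 39.6 CPM in shITGB5, against 23.1, 25.2 and 24.0 CPM in shcontrol. The groups were apart and the fold was 1.53 (95% interval 1.38 to 1.68, log2 change 0.61, edgeR adjusted p = 8.62e-12). Leaving out any 1 library gave 0.55 to 0.64. The ratio of AREG to EREG, in FPKM, was 3.02, 3.4 and 3.61 in shITGB5, against 4.28, 4.3 and 4.96 in shcontrol, so AREG was the more abundant transcript per length in every library.

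BTC, the gene of betacellulin, which binds EGFR and ERBB4, also rose, at a lower level and with a wider error. BTC (ENSG00000174808) measured 6.07, 4.84 and 6.36 CPM in shITGB5, against 3.96, 2.86 and 3.99 CPM in shcontrol. The second library of each group was the lowest of its group, and the groups still did not overlap. The fold was 1.6 (95% interval 1.25 to 2.05, log2 change 0.68, edgeR adjusted p = 0.00317). These values rest on 80 to 112 counts in shITGB5 libraries and 48 to 69 in shcontrol libraries, for which counting error alone gives coefficients of variation of 9.98% and 12.9%. Without shcontrol replicate 2 the call was lost (log2 change 0.54, edgeR adjusted p = 0.0559). On the log2(FPKM + 1) scale of limma, which understates changes of low genes, the change was 0.42 (adjusted p = 0.0489).

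HBEGF, the gene of heparin-binding EGF-like growth factor, did not share this rise. HBEGF (ENSG00000113070, chromosome 5, 140332843 to 140346631, minus strand) measured 9.8, 10.0 and 10.3 CPM in shITGB5, against 14.1, 10.1 and 11.3 CPM in shcontrol. The groups overlapped, and shcontrol replicate 1 stood above the other 5 libraries. The difference was -15.5% (95% interval -28.3% to -0.293%), with an edgeR adjusted p of 0.185. Without shcontrol replicate 1 the log2 change was -0.10 in place of -0.24, and the adjusted p was 0.0607 to 0.754 over the fits that left out 1 library.

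TGFA, the gene of transforming growth factor alpha, a ligand of EGFR, was barely detected. TGFA (ENSG00000163235, chromosome 2, 70447280 to 70554193) had 5, 3 and 4 counts in the shITGB5 libraries, against 7, 0 and 3 counts in the shcontrol libraries. A count of 0 still allows up to 0.179 CPM in the library concerned (3 counts, counting error only). No difference was detectable at this depth.

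Together the 5 ligand transcripts were higher in every shITGB5 library, and on the FPKM scale AREG made up most of them in both groups. Summed ligand levels were 33.9, 32.9 and 36.4 FPKM in shITGB5, against 23.5, 23.2 and 22.7 FPKM in shcontrol, a ratio of means of 1.49. AREG held 63.1% to 66% of the sum in shITGB5 and 59.8% to 65.9% in shcontrol. EREG held 18.3% to 20.8% in shITGB5, above its 12.9% to 15.3% in shcontrol. HBEGF held 9.36% to 10.1% in shITGB5, below its 14.5% to 19.9% in shcontrol. These shares are descriptions and follow from the ligand changes above. The share of HBEGF also depends on the larger sum in shITGB5, and the level of HBEGF itself overlapped between the groups and did not pass the test. The summed receptor level was 2.73 to 3.07 times the summed ligand level in the shITGB5 libraries and 4.16 to 4.41 times in the shcontrol libraries.

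**Figure D3:**
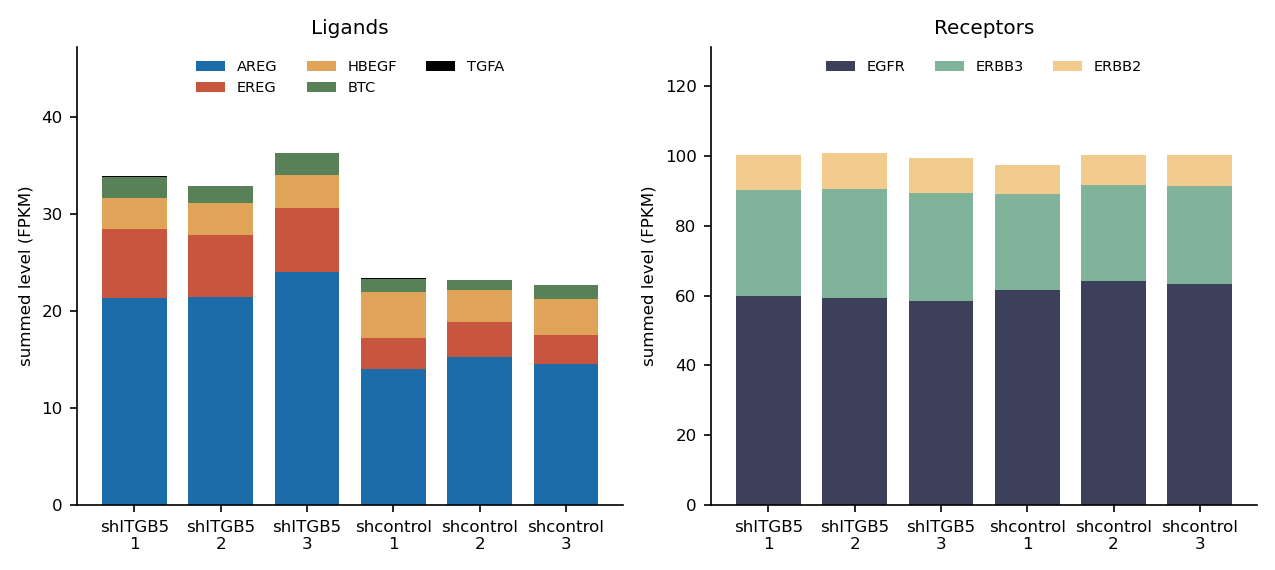
Summed FPKM (y axis) of the 5 ligand transcripts (left) and the 3 receptor transcripts (right) in each library (x axis), stacked by gene. The ligand columns reach 32.9 to 36.4 FPKM in shITGB5 and 22.7 to 23.5 FPKM in shcontrol, while the receptor columns lie between 97.5 and 101.0 FPKM in all 6 libraries. TGFA is barely visible at this scale.

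ERRFI1, also called MIG6, binds the EGFR kinase domain and blocks it, and its gene is itself induced by EGFR signalling. ERRFI1 (ENSG00000116285, chromosome 1, 8004404 to 8026308, minus strand) measured 121.4, 123.7 and 120.6 CPM in shITGB5, against 136.4, 134.6 and 131.0 CPM in shcontrol. The groups were apart, and ERRFI1 fell by 9.06% (95% interval -13.5% to -4.35%, edgeR adjusted p = 0.00371). Its antisense neighbour AL034417.4 carried 0.981% as many counts.

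ADAM17, the main protease that releases AREG, EREG, HBEGF and TGFA from the cell surface, was also lower, by a margin close to the threshold. ADAM17 (ENSG00000151694, chromosome 2, 9488486 to 9556732, minus strand) measured 34.9, 36.9 and 37.6 CPM in shITGB5, against 39.6, 42.8 and 41.1 CPM in shcontrol. The groups did not overlap, and the difference was -11.4% (95% interval -18.7% to -3.4%, edgeR adjusted p = 0.0433). The call was lost without shITGB5 replicate 1, 2 or 3 (log2 changes -0.15, -0.18 and -0.20, adjusted p = 0.173, 0.0608 and 0.0536) and without shcontrol replicate 2 or 3 (-0.15 and -0.18, adjusted p = 0.189 and 0.0859). DESeq2, limma and edgeR without a low-count filter did not call it either (adjusted p = 0.0599, 0.183 and 0.114). ADAM17 shares 1323 exonic bases with the oppositely oriented gene IAH1. The counts of IAH1 were 74.5% as many, and it did not pass the test (log2 change -0.03, edgeR adjusted p = 0.881).

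In FPKM, the order of the 10 transcripts changed in 2 places that exceed the spread between libraries. This order rests on the deposited gene lengths, whose match to the transcripts present was not tested. In shITGB5 the mean FPKM ran EGFR 59.1, ERBB3 30.9, ERRFI1 29.1, AREG 22.3, ERBB2 10.2, EREG 6.68, ADAM17 3.39, HBEGF 3.33, BTC 2.04 and TGFA 0.0462. In shcontrol it ran EGFR 63.0, ERRFI1 32.0, ERBB3 27.8, AREG 14.6, ERBB2 8.53, HBEGF 3.93, ADAM17 3.83, EREG 3.26, BTC 1.28 and TGFA 0.0397. In FPKM, ERBB3 stood above ERRFI1 in all 3 shITGB5 libraries and below it in all 3 shcontrol libraries. In CPM, which does not divide by length, mean ERBB3 exceeded ERRFI1 in shITGB5 (279.1 against 121.9) and in shcontrol (251.0 against 134.0). EREG stood above ADAM17, in FPKM, in all 3 shITGB5 libraries and below it in all 3 shcontrol libraries. In CPM, EREG was also below ADAM17 in shcontrol (means 18.6 and 41.1), but the 2 genes overlapped in shITGB5 (38.2 and 36.5). HBEGF and ADAM17 overlapped in FPKM in both groups, as did EREG and HBEGF in shcontrol.

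EREG, AREG and BTC lie in a stretch of chromosome 4 in which other expressed genes were also higher with the hairpin. Within 1000 kb of the start of EREG the table lists 42 genes, of which 16 were tested, 9 rose, 0 fell and 7 did not pass. Among all genes tested, 8.54% rose. The median log2 change of the 16 was 0.35, against -3.6e-05 over all genes tested. The window was centred on EREG, and the count and the median include the 3 ligands, so they are partly set by the rise of these. Besides the 3 ligands, the genes that rose included the neutrophil-attracting chemokines CXCL1 (0.79), CXCL8 (0.50) and CXCL3 (0.43). The others were PARM1 (0.41), a membrane protein gene, AFP (0.30) and ALB (0.18). AFP and ALB encode the main fetal and adult plasma proteins of the liver. CXCL1, with the largest rise of this stretch after EREG, measured 142.8, 125.7 and 144.3 CPM in shITGB5, against 80.1, 79 and 80.1 CPM in shcontrol. The stretch did not move as a block. The chemokine gene CXCL5 lay at 320.1 ± 8 CPM in shITGB5 and 321.6 ± 7.21 CPM in shcontrol (SD, n = 3 each). Its edgeR adjusted p was 0.917. The others that did not pass were LINC02562 (0.71), the chemokine genes CXCL6 (0.16) and CXCL2 (0.15), AFM (-0.02), MTHFD2L (-0.22) and RASSF6 (-0.41). For RASSF6 every shITGB5 library lay below every shcontrol library (edgeR adjusted p = 0.0859). EPGN, the gene of the ligand epigen, lies 56.7 kb before EREG and averaged 0.214 CPM in shITGB5 and 0.182 CPM in shcontrol, too low to be tested. AFP and ALB are also among the hepatocyte markers above, and the 3 ligands were chosen for their family and not for this position. PARM1, AFP, ALB, CXCL5 and EPGN were singled out after their values were seen.

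**Figure D4:**
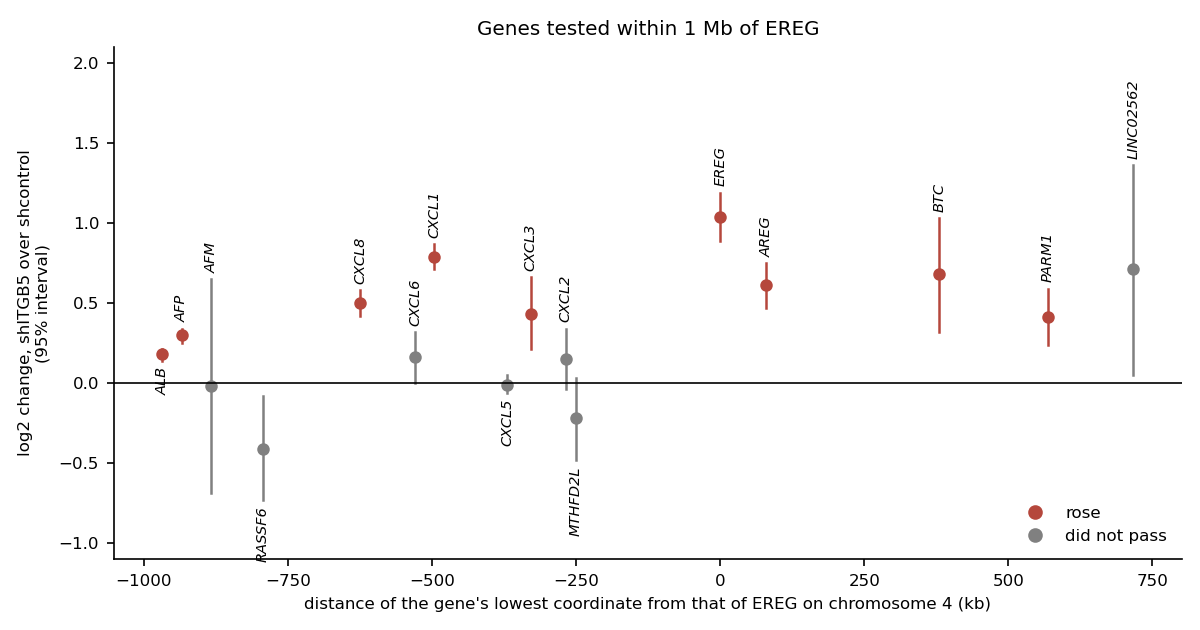
Log2 change, shITGB5 over shcontrol (y axis, point and 95% interval from edgeR), of the 16 genes tested within 1000 kb of EREG, against the distance of the gene's lowest coordinate from that of EREG (x axis, kb). Red genes rose and grey genes did not pass. EREG, at distance 0, has the largest change at 1.04, and CXCL5, at -370 kb, lies on the zero line.

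Around the family, the relay genes that carry the receptor signal showed no change that passed, while transcripts that ERK signalling induces were mostly higher. Of 18 ERK-induced transcripts 12 rose, 0 fell and 6 did not pass, with a median log2 change of 0.24. EGR1 (0.58) and ETV5 (0.38), both transcription factors, and IER3 (0.36), a survival factor, rose most. EGR1 missed the threshold without shITGB5 replicate 1 (log2 change 0.47, edgeR adjusted p = 0.0862) or shcontrol replicate 1 (0.50, adjusted p = 0.0564). None of the 11 adaptor and relay genes passed, and the median was -0.04. The adaptor SHC1, the most abundant of them per length, lay at 236.0 ± 6.65 CPM in shITGB5 and 231.9 ± 2.59 CPM in shcontrol (edgeR adjusted p = 0.683). GRB2, which links the receptors to SOS, lay at 149.5 ± 4.38 CPM in shITGB5 and 155.0 ± 0.784 CPM in shcontrol (SD, n = 3 each, edgeR adjusted p = 0.366).

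Among genes that shed ligands or attenuate and accompany the receptors, 3 of 6 tested passed for shedding, 2 of 14 for attenuation and 2 of 6 for receptor partners, beside the 15.5% of all genes tested. Of 7 genes of ligand shedding 6 were tested, and RHBDF1 (0.20) and TIMP3 (0.21) rose while ADAM9 (-0.10) fell. RHBDF1 encodes an inactive rhomboid that escorts ADAM17, and TIMP3 an inhibitor of ADAM17. RHBDF1 lost the call without shITGB5 replicate 3 or shcontrol replicate 2 or 3 (edgeR adjusted p = 0.115, 0.0826 and 0.0685), and TIMP3 without replicate 1 of shITGB5 or of shcontrol (0.0921 and 0.0602). Of 15 attenuators 14 were tested, and the receptor phosphatase PTPRJ rose (0.28) while the deubiquitinase USP8 fell (-0.18). USP8 lost the call without shITGB5 replicate 3 or shcontrol replicate 1 or 2 (edgeR adjusted p = 0.101, 0.0533 and 0.108). Of 6 receptor partners CD9, a tetraspanin that binds the HBEGF precursor, fell (-0.19), and so did CD44 (-1.19), whose level averaged only 0.731 CPM in shITGB5 and 1.68 CPM in shcontrol. CD44 lost the call without shITGB5 replicate 1 or shcontrol replicate 2 (edgeR adjusted p = 0.0822 and 0.0864). Of the 7 other family receptors and ligands 5 were tested and none passed. The neuregulin gene NRG3, the most abundant of them per length after ERBB4, lay at 3.01 ± 0.538 CPM in shITGB5 and 2.88 ± 0.225 CPM in shcontrol (SD, n = 3 each, edgeR adjusted p = 0.906). Over all 6 lists, 60 of 64 genes were tested, 15 rose and 4 fell, with a median log2 change of 0.04.

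**Figure D5:**
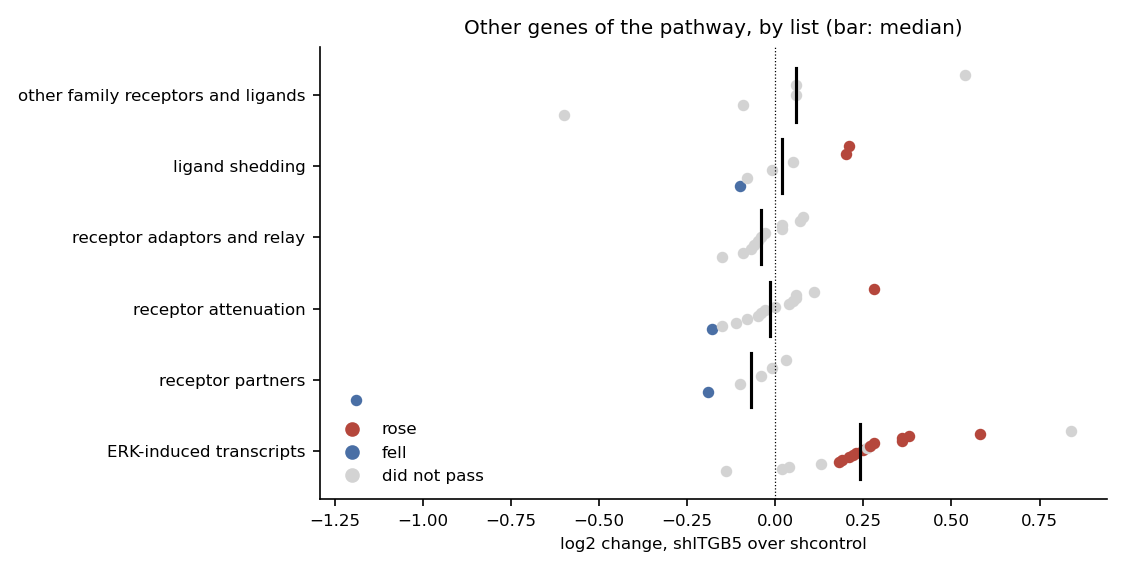
Log2 change, shITGB5 over shcontrol (x axis), of each gene tested in the 6 lists of other pathway genes (rows). Points are genes, red where they rose, blue where they fell and grey where they did not pass, and vertical bars are list medians. The median is 0.24 for the ERK-induced transcripts and between -0.07 and 0.06 for the other lists.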

How the data were processed

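The authors deposited a table of whole-number counts per gene for 6 libraries, although its name speaks of FPKM. Per the labels' protocols, total RNA was made into libraries with a directional kit. Which aligner and which counter were used, and with what strand setting, is not given in the sources used here. All 58735 gene positions equalled those of GENCODE release 29 (GRCh38). Columns marked S were read as the ITGB5 hairpin and NC as the control, which the labels do not spell out.

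Genes were kept by filterByExpr, scaled by TMM (factors 0.998 to 1) and tested with edgeR 4.0.16 (R 4.3.3, quasi-likelihood, robust, two-sided). P-values were Benjamini-Hochberg adjusted over 16577 genes, with a threshold of 0.05. CPM and FPKM were computed here from those counts, the TMM-scaled totals and the table's gene lengths. Levels over 3 libraries are mean ± SD. The 95% intervals come from the edgeR standard errors and include the spread between libraries, while floors of 3 counts cover counting error only. Replicate libraries differed by 2.011 to 2.321 times counting noise (chi-square per degree of freedom), more than 1 library sequenced again would. This does not show whether they came from separate cultures.

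The members, the gene lists and the 1000 kb window were chosen with earlier results of these data known, and no list was tested as a set. Named genes were the members, ITGB5, up to 3 called genes per list and direction (otherwise the 2 most abundant per length, where tested), up to 6 called genes of the window by size of change, and for EREG, AREG and EGFR the 3 genes most like each, of which 1 is not reported here.

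The scripts were tested on simulated data, with 50 genes drawn at random for each size of change. The test recovered 20% of 1.1-fold, 26% of 1.2-fold, 64% of 1.5-fold and 80% of 2-fold changes. A gene that did not pass may therefore still have changed by a small amount. Alternatives were RLE factors, library totals, other filters, DESeq2 1.42.0, limma 3.58.1 on log2(FPKM + 1), a block for the replicate number, and fits without each library in turn.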

Additional observations from a re-analysis of the deposited data

How the results depend on the processing

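EREG, AREG, ERBB2, ERBB3, ERRFI1 and ITGB5 kept their direction and their call in every alternative run, and HBEGF stayed above the threshold in each. EGFR, at -0.09, missed the threshold only in limma on log2(FPKM + 1), also at -0.09 (adjusted p = 0.079). With 1 library left out BTC lay between 0.54 and 0.78, and DESeq2 gave it no adjusted p. ADAM17, at -0.17, lost its call with no low-count filter (-0.17), in DESeq2 (-0.17) and in limma (-0.14), and lay between -0.20 and -0.15 with 1 library left out. The cause of these losses was not tested. Limma called 1362 genes in place of 2569, and 11 of the other pathway genes in place of 19. DESeq2 called 2208 genes. The 8 members called became 6 to 8 when 1 library was left out, 7 with no low-count filter and 6 in DESeq2 and in limma. The 9 genes that rose near EREG became 8 to 9 over all alternatives. The ratio of summed ligand FPKM, 1.49, was also 1.49 on TPM and lay between 1.44 and 1.52 with 1 library left out. Deviations from the group means did not go together in libraries of the same number (correlation 0.0034, -0.0544 and -0.0155 over 10561 genes), which share only a number. With the replicate block, edgeR called 2499 genes and the same 8 members, with EGFR at an adjusted p of 0.00575 and ADAM17 at 0.0479. At this depth TGFA could not be compared.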

Other observations

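Among the genes whose profile over the 6 libraries was most like that of EREG were OGFR and NTN4, with root mean square differences of 0.13 and 0.17 on the log2 scale after the shcontrol mean was subtracted, among 9727 protein-coding genes with a mean of at least 10 CPM. OGFR encodes the opioid growth factor receptor and NTN4 a secreted netrin. OGFR averaged 97.9 CPM in shITGB5 and 51.3 CPM in shcontrol, and NTN4 61.9 CPM in shITGB5 and 35 CPM in shcontrol. Those most like AREG were ETV1 (0.06), a transcription factor of the ETS family, G3BP2 (0.06), an RNA-binding protein of stress granules, and TOMM22 (0.08), a subunit of the mitochondrial import pore. ETV1 averaged 29.6 CPM in shITGB5 and 19.6 CPM in shcontrol. For EGFR the nearest were FN1, OGT and SRP68, each at 0.01, but 45.8% of the genes compared lay within 0.1 of EGFR, so its profile was a common one. With 2 groups of 3 libraries, these likenesses mostly restate a similar difference between the groups.

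The 3′ untranslated region of EGFR holds 1 copy of the word AGACCAA, and so does that of TGFA, in 1 principal transcript per gene of GENCODE 29. The other 8 family genes and ITGB5 hold none, and none of the 10 holds any of the 3 other words searched. The 4 words were taken up because they had been noticed earlier in these same libraries among genes that changed. Of genes with an annotated 3′ untranslated region, AGACCAA was held by 22.1% of the 1065 that fell, 6.62% of the 1360 that rose and 10.1% of the 13225 tested. As the word was picked from these same data, the shares give no independent support. They also take no account of length, and the region of EGFR, at 6011 bases, is the longest of the 10. The part of the word in the difference of EGFR was not tested.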
